A study of Mus musculus with 24 samples.

Results

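Regulators of G-protein signaling (RGS proteins) were examined as 9 genes, Rgs2, Rgs4, Rgs7, Rgs8, Rgs10, Rgs12, Rgs14, Rgs16 and Rgs17, chosen by gene symbol from the 24972 genes of each expression table. All 9 were present in both tables and above 0 in all 24 libraries, and all 9 passed the filter on low values. RNA was sequenced from the medial prefrontal cortex (mPFC) of mouse offspring on postnatal day (P) 21, in 6 libraries each of male MO, male SAL, female MO and female SAL offspring. MO offspring came from C57BL/6J dams given morphine subcutaneously each day, raised stepwise over the starting days to 10 mg/kg, from 1 week ahead of breeding to the day the tissue was taken. SAL offspring came from dams given saline on the same schedule. All offspring were wild-type B6D2F1/J hybrids sired by DBA/2J males, and only the dams were injected. The study took 1 offspring of each sex per litter and had combined small litters, and the labels do not say which male and female libraries share a dam. The comparison asked whether perinatal morphine was followed by a different mRNA level of genes that brake opioid and other G protein-coupled receptors.

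When a G protein-coupled receptor is activated, the G alpha subunit binds GTP, separates from the G beta and gamma subunits, and signals until it hydrolyses the GTP. RGS proteins speed that hydrolysis and so shorten the signal. The mu-opioid receptor, the target of morphine, couples to Gi/o and Gz proteins, and many RGS proteins act on Gi/o. In the set studied here, Rgs2, Rgs4, Rgs8 and Rgs16 belong to the R4 subfamily of small RGS proteins, Rgs7 to the R7 subfamily, Rgs10, Rgs12 and Rgs14 to the R12 subfamily, and Rgs17 to the RZ subfamily, which is known for its action on Gz.

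Values are the normalized counts of the study, made for each sex in a separate table, so MO was set against SAL within a sex and levels were not compared between the sexes. Normalized counts summed to between 14728966 and 15966593 per library, and the read depth of each library is unknown. RNA of the Y-linked gene Ddx3y and of Xist fell on the side of the labelled sex in every library, and markers of excitatory cortical neurons were abundant in all of them (summed levels of 74343 to 94708 normalized counts). The female MO library PFC1 stood apart. Its 6 oligodendrocyte markers summed to 295945 normalized counts, against a median of 62717 in female MO and 74359 in female SAL libraries, and its 8 microglia markers to 10432. The names of 11 libraries carry the suffix "combined", which is not explained. They were 2 of the male MO, 1 of the male SAL, 4 of the female MO and 4 of the female SAL libraries. In whole tissue, fewer cells of a type and less RNA per cell cannot be told apart.

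Rgs4 was by far the most abundant of the 9 genes, and Rgs16 the least. Per kilobase of annotated transcript, the median level of Rgs4 was 4425 normalized counts in male MO, 4668 in male SAL, 4013 in female MO and 4570 in female SAL offspring. Rgs16 had medians per kilobase of 55.1, 63.3, 60.7 and 53.4 normalized counts in the same groups, so that Rgs4 was 66.1 to 85.6 times as abundant per length. Rgs7 came after Rgs4, at 661 to 721 normalized counts per kilobase, and its range did not reach that of Rgs4 in any group. Rgs10, Rgs2 and Rgs14 followed, with medians between 278 and 397 normalized counts per kilobase. The libraries of these neighbours overlapped in all 4 groups, and Rgs2 and Rgs10 changed places in male SAL offspring, so their order is not resolved. Rgs17 stood at 197 to 227, Rgs12 at 142 to 150 and Rgs8 at 110 to 131 normalized counts per kilobase. Rgs12 and Rgs8 overlapped in 3 of the 4 groups, and Rgs8 ranked above Rgs12 in males when the longest Rgs12 transcript (5472 bases) was used as its length.

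**Figure D1:**
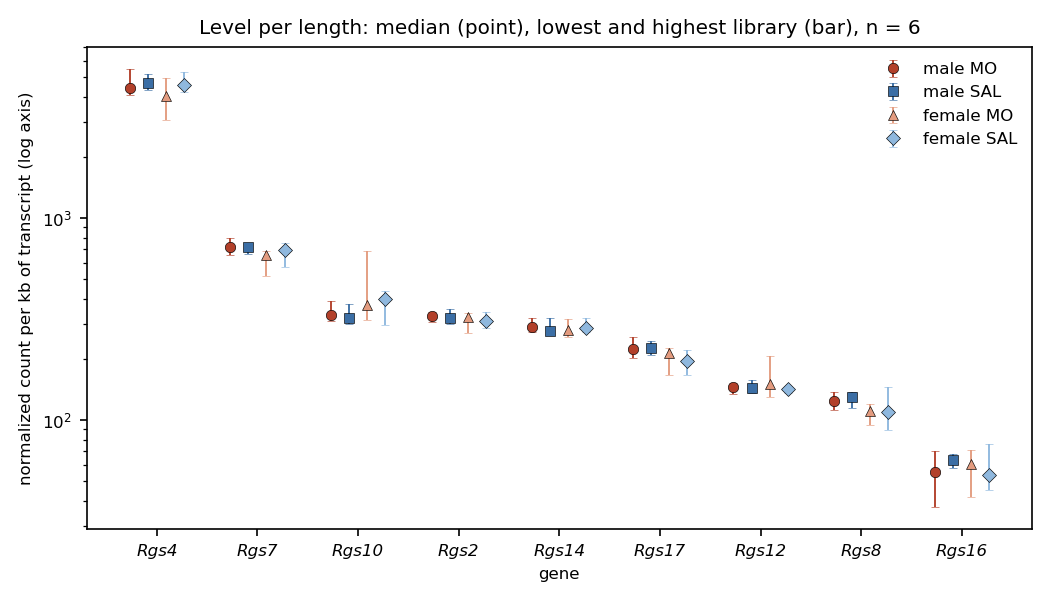
Normalized count per kilobase of annotated transcript (log axis) for the 9 RGS genes, with a point at the median of 6 libraries and a bar from the lowest to the highest library, for male MO, male SAL, female MO and female SAL. Rgs4 lies at or above 3055 in every library and Rgs16 is the lowest in every group, and the bars of Rgs10, Rgs2 and Rgs14 overlap.

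No RGS gene differed between MO and SAL offspring at an adjusted p under 0.05 in limma with Benjamini-Hochberg adjustment over all genes. None of the 16662 male, 16717 female or 17303 genes tested over both sexes passed either. At an unadjusted limma p under 0.05, 0 of the 9 members were called in males, where 2.85% of all genes were, and 1 of 9 in females, where 2.93% were. Over both sexes 1 of 9 was called, against 4.72% of all genes, and for the difference between the sexes 0 of 9, against 2.10% of all genes. The gene called in females and over both sexes was Rgs4. The median log2 fold change of the 9 members (MO minus SAL) was -0.0055 in males, where it was -0.0002 over all genes, and 0.0070 in females, where it was 0.0018. The MO and SAL libraries of a sex overlapped for all 9 members, whereas they did not overlap for 0.0600% of all genes in males and 0.132% in females.

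**Figure D2:**
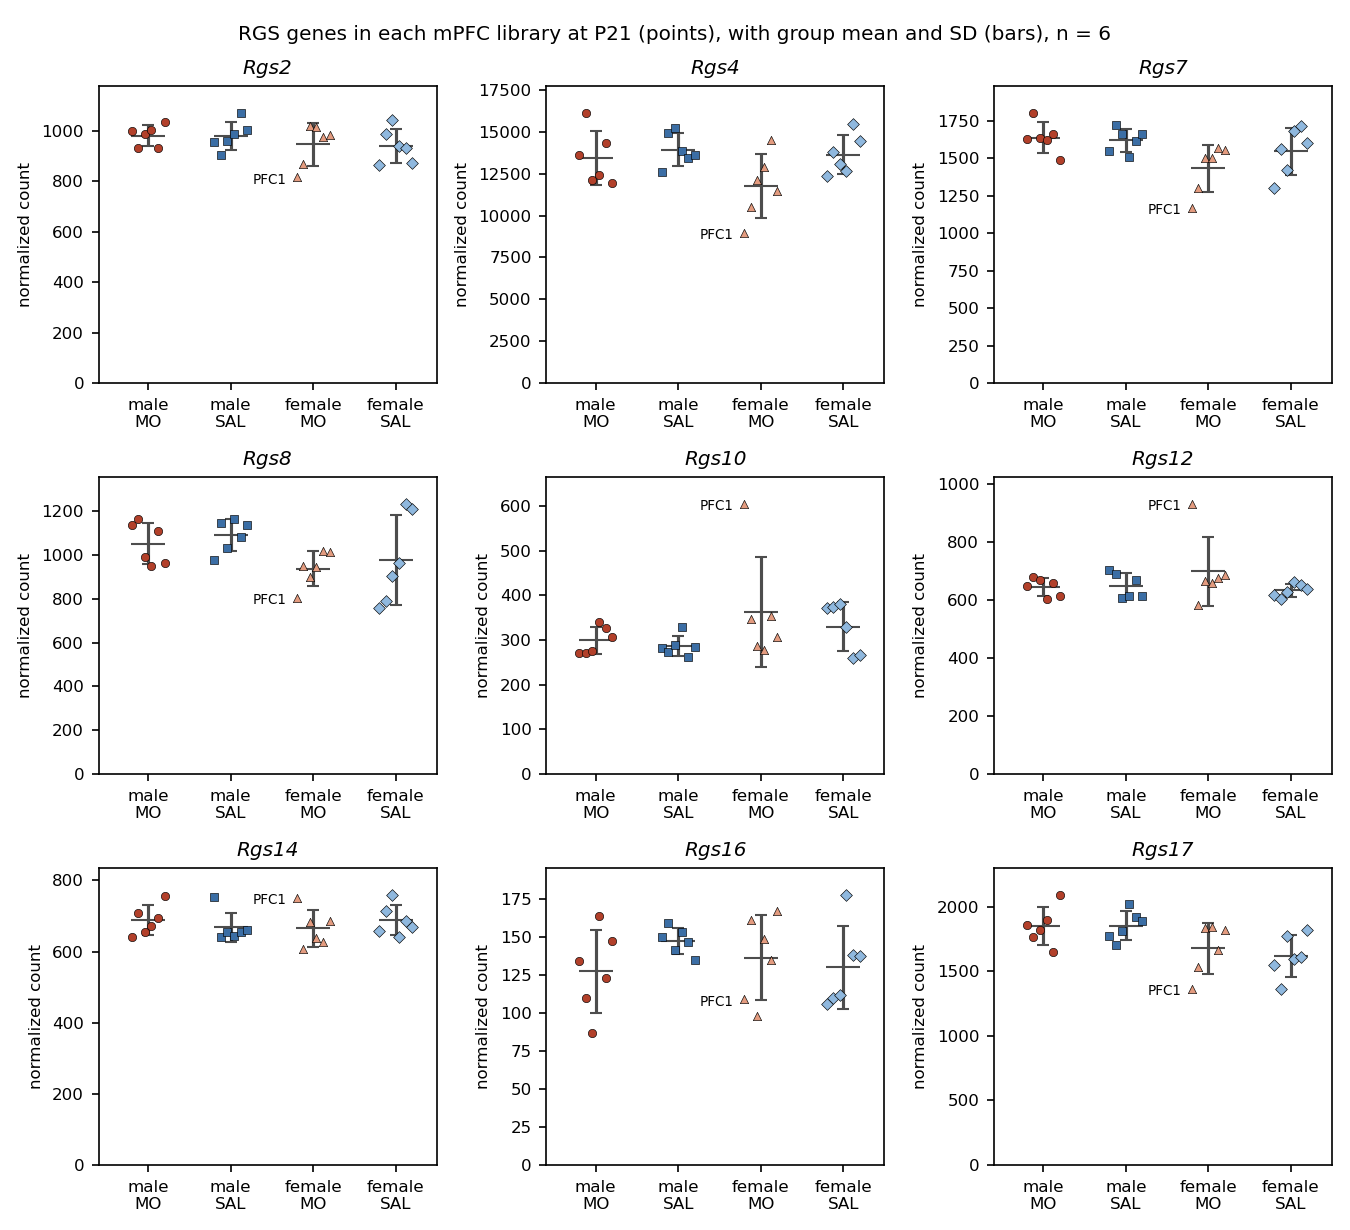
Normalized count of each RGS gene (vertical axes from 0) in every library of male MO, male SAL, female MO and female SAL offspring, with the group mean and SD as bars (n = 6). MO and SAL points overlap within each sex in all 9 panels, and the labelled library PFC1 is the lowest female MO point for Rgs4 (8986) and the highest for Rgs10 (604) and Rgs12 (930).

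Rgs4, a small R4 protein that acts on Gi/o and Gq and is known to limit mu-opioid receptor signaling, had the lowest unadjusted p of the set in females. Its lowest, median and highest normalized counts were 8986, 11803 and 14523 in female MO libraries, against 12366, 13440 and 15479 in female SAL libraries. In females, 5 of 6 MO libraries lay under the SAL median, but PFC21 was higher than 5 of the 6 SAL libraries. The log2 fold change was -0.23 (SE 0.11, 95% interval -0.45 to -0.00084), with an unadjusted p of 0.0493 and an adjusted p of 0.918 in limma, and a 2-sided exact permutation test gave p = 0.0628. In males the lowest, median and highest counts of Rgs4 were 11935, 13012 and 16124 in MO, against 12612, 13728 and 15240 in SAL libraries, a log2 fold change of -0.06 (95% interval -0.20 to 0.08, exact permutation p = 0.468).

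Over both sexes, Rgs4 had a log2 fold change of -0.14 (SE 0.07, 95% interval -0.28 to -0.0068), with an unadjusted limma p of 0.0403, an adjusted p of 0.847 and p = 0.0484 from 100000 permutations within sex. Both p-values leave litters out of the model, although males and females of the 24 libraries can share a litter. The difference between the sexes was 0.17 (male minus female, 95% interval -0.10 to 0.44, limma, adjusted p = 1.00), so a difference between the sexes was not shown. The library PFC1 held the lowest Rgs4 count of all. Without it the log2 fold change was -0.15 in females (unadjusted limma p = 0.083, exact permutation p = 0.123) and -0.10 over both sexes (unadjusted limma p = 0.0728). Without PFC21 it was -0.29 in females, with an unadjusted limma p of 0.0109. Within female libraries carrying the suffix "combined" (4 MO, 4 SAL) the log2 difference was -0.23, and within the others (2 MO, 2 SAL) it was -0.21. In males it was 0.23 with the suffix (2 MO, 1 SAL) and -0.16 without it (4 MO, 5 SAL), so the sign differed between the classes.

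Rgs16, a small R4 protein that acts on Gi/o and Gq and whose mRNA is inducible in several cell types, was the least abundant member. It had 86.7, 129 and 164 normalized counts as lowest, median and highest values in male MO libraries, against 135, 148 and 159 in male SAL libraries. In males, 5 of 6 MO libraries lay under the SAL median, while the highest male library, PFC15, was also MO. The coefficient of variation of Rgs16 was 21.4% in male MO and 5.76% in male SAL offspring. The log2 fold change in males was -0.24 (SE 0.12, 95% interval -0.49 to 0.02), with an unadjusted p of 0.0703 and an adjusted p of 1.00 in limma, and an exact permutation p of 0.110. It was -0.31 without PFC15 (exact permutation p = 0.0130) and -0.13 without PFC13 (exact permutation p = 0.219), so a single library decided on which side of 0.05 it fell. In females Rgs16 had 97.9, 142 and 167 counts in MO, against 106, 125 and 178 in SAL libraries, a log2 fold change of 0.06 (95% interval -0.27 to 0.40). The difference between the sexes was -0.30 (male minus female, 95% interval -0.73 to 0.13, limma, adjusted p = 1.00). Within males carrying no suffix (4 MO, 5 SAL) the log2 difference of Rgs16 was -0.21, and within the others (2 MO, 1 SAL) it was -0.30.

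Rgs16 moved with immediate early genes, which neurons transcribe within minutes of activity, though not among the male SAL libraries. The summed level of 12 such genes, among them Fos and Egr1, ran from 7280 through a median of 13825 to 22364 normalized counts in male MO libraries, against 19256, 21546 and 23096 in male SAL libraries. All 12 were lower in male MO offspring at an unadjusted limma p under 0.05 (1.52% of all genes were called lower) and 0 at an adjusted p under 0.05, with a median log2 fold change of -0.59. In females the sums were 6247, 16198 and 22217 in MO, against 9717, 20911 and 22619 in SAL libraries, and 0 of the 12 genes were called lower, against 1.12% of all genes. Their median log2 fold change in females was -0.48, and -0.26 without PFC1. Egr1, which encodes an activity-induced transcription factor, had a log2 fold change of -0.51 in males (SE 0.14, limma, adjusted p = 1.00). Fos, which encodes a subunit of the AP-1 transcription factor, had a log2 fold change of -0.67 (SE 0.21, limma, adjusted p = 1.00). The part of these genes in the Rgs16 values was not tested, and the list was chosen with earlier results of these data known.

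Across the 24 libraries, with the mean of its own group taken from each value, Rgs16 correlated with the mean log2 level of the 12 immediate early genes (Pearson r = 0.75, permutation p = 0.00091, adjusted p = 0.0109, and Spearman rho = 0.75, permutation p = 0.00063, adjusted p = 0.0113, over 72 pairs of a member and a marker list). The correlation was 0.74 without the libraries PFC1 and PFC6, farthest out in the immediate early genes, 0.71 in males and 0.77 in females. It was 0.68 among 10 libraries with the suffix "combined" and 0.80 among 13 without it, the lone male SAL library with the suffix being left out. Within groups the order was not identical. Among male MO libraries PFC13 was lowest in both, but PFC19 had the highest sum of immediate early genes and PFC15 the highest Rgs16 count. Among female MO libraries PFC23 was highest in both, but PFC1 had the lowest sum and PFC5 the lowest Rgs16 count. Among female SAL libraries PFC7 was highest in both, but PFC6 had the lowest sum and PFC2 the lowest Rgs16 count. The male SAL libraries, which varied little, did not follow the relation. PFC12, PFC14, PFC16, PFC18 and PFC20 lay on opposite sides of the male SAL mean in Rgs16 and in the immediate early genes, and only PFC9 did not. PFC20 was lowest in Rgs16 but highest in the mean log2 level of the immediate early genes. PFC16 was above the male SAL mean in Rgs16 but lowest in the mean log2 level of the immediate early genes. Rgs2, a Gq-selective R4 protein that is itself induced by neuronal activity in the rodent brain, had an r of 0.14 with the same genes (permutation p = 0.620, rho = 0.11, permutation p = 0.667). Across all members other than Rgs16, r with these genes lay between -0.45 and 0.33, and none had an adjusted p under 0.05.

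**Figure D3:**
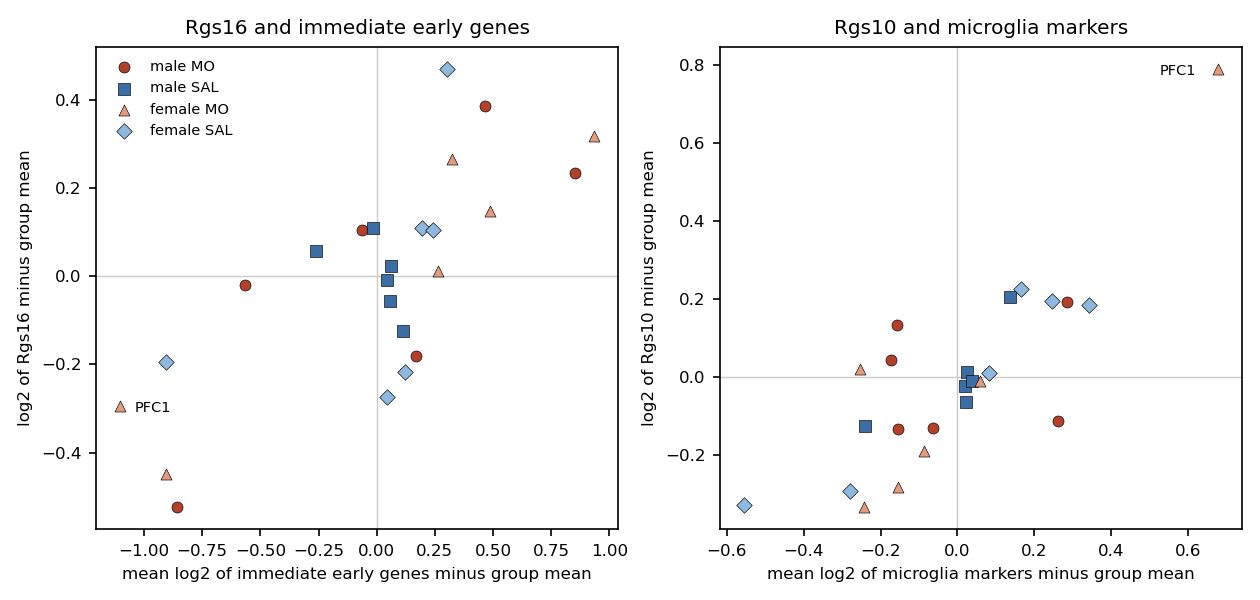
Each point is 1 library, with its distance from the mean of its own group on a log2 scale, for Rgs16 against the mean of 12 immediate early genes (left) and for Rgs10 against the mean of 8 microglia markers (right), in male MO, male SAL, female MO and female SAL. Rgs16 rises with the immediate early genes (r = 0.75), with exceptions. PFC2, PFC4, PFC11, PFC14, PFC18 and PFC20 lie above their group mean in those genes and below it in Rgs16. The reverse holds for PFC10, PFC12 and PFC16. The highest Rgs10 point is the single library PFC1.

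The upstream sequences of 3 R4 genes are shown because Rgs4 and Rgs16 carry the lowest unadjusted p in females and males, and Rgs2 is the activity-induced relative whose r with the immediate early genes was 0.14. Each run is the 250 bases before the RefSeq start site (GRCm38.p6), 5′ to 3′ on the gene's own strand, for Rgs4 at chr1:169747643-169747892 (minus strand), Rgs16 at chr1:153740103-153740352 (plus strand) and Rgs2 at chr1:144004150-144004399 (minus strand). Capitals mark TGACG or its complement CGTCA, which is the core of the cyclic AMP response element (CRE), and TATAAA.
Rgs4: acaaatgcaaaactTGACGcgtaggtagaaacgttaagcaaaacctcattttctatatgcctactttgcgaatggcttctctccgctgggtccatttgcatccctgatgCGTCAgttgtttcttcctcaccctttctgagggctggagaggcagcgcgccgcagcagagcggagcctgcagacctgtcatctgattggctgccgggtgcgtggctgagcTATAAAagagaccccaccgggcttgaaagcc
Rgs16: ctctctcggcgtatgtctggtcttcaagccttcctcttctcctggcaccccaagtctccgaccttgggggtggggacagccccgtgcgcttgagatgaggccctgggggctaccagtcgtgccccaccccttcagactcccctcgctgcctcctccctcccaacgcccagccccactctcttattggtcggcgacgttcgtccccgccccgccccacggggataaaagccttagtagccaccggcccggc
Rgs2: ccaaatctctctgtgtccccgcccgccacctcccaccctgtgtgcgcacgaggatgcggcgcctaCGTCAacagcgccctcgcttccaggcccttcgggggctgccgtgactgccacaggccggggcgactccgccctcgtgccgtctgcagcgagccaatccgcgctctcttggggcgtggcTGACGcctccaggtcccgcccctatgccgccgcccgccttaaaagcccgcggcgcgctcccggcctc
In these sequences Rgs4 holds the CRE core at 236 and 141 bases and TATAAA at 31 bases before the start, Rgs2 holds the core at 185 and 67 bases before the start, and Rgs16 holds neither. Over all 32851 RefSeq promoter windows of 300 bases (250 before and 50 after the start), searched on both strands, 20.8% had the core TGACG and 13.6% had TATAAA, against 4 and 1 of the 11 windows of the 8 members that were matched. The full CRE, TGACGTCA, which contains the core, was in 1.79% of all windows and the CArG box in 1.63%, and both were in 0 of the 11. Rgs14 had no matching entry. These are matches of letters and say nothing about binding.

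The other R4 members are Rgs2 and Rgs8, and neither was called in any comparison. Rgs2 had 930, 992 and 1034 normalized counts as lowest, median and highest values in male MO, against 902, 972 and 1070 in male SAL libraries, and 815, 979 and 1020 in female MO, against 866, 934 and 1042 in female SAL libraries. Its log2 fold changes were 0.0022 in males (95% interval -0.10 to 0.10) and 0.0070 in females (95% interval -0.15 to 0.16). Rgs8, a neuronal R4 protein that acts on Gi/o, had 949, 1049 and 1164 counts in male MO, against 978, 1108 and 1165 in male SAL libraries, and 803, 945 and 1020 in female MO, against 759, 934 and 1232 in female SAL libraries. The Rgs8 log2 fold changes were -0.05 in males (95% interval -0.18 to 0.08) and -0.04 in females (95% interval -0.29 to 0.21). Within each class of the library suffix the female Rgs8 values went in opposite directions, with log2 differences of 0.08 with it (4 MO, 4 SAL) and -0.26 without it (2 MO, 2 SAL), where both MO libraries (1020 and 1014 counts) lay below both SAL libraries (1232 and 1210). Rgs8 (chr1:153653025-153700323, plus strand) and Rgs16 (chr1:153740349-153745468, plus strand) are neighbours on mouse chromosome 1, 40026 bases apart in GRCm38, and their levels had an r of 0.34 across the libraries (permutation p = 0.153, adjusted p = 0.357, and rho = 0.35, permutation p = 0.137, adjusted p = 0.460).

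Rgs7, the only R7 member of the set, forms a stable complex with the G beta 5 protein and is tied to membranes by R7BP and GPR158. It had 1170, 1501 and 1568 normalized counts in female MO, against 1301, 1582 and 1716 in female SAL libraries, and all 6 female MO libraries lay under the SAL median. The log2 fold change in females was -0.11 (95% interval -0.30 to 0.07, exact permutation p = 0.247), and -0.06 without PFC1. In males Rgs7 had 1487, 1631 and 1803 counts in MO, against 1511, 1638 and 1721 in SAL libraries, a log2 fold change of 0.02 (95% interval -0.08 to 0.12). Of 5 genes for R7 partners, Gnb5, which encodes G beta 5, was lower in females at an unadjusted limma p of 0.0356 (log2 fold change -0.17, adjusted p = 0.918) and over both sexes at 0.00995 (log2 fold change -0.12, adjusted p = 0.847), where 1.12% and 2.21% of all genes were called lower. The other 4 partner genes were not called in either comparison, and none of the 5 was called in males.

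Rgs10, Rgs12 and Rgs14 form the R12 subfamily. Rgs10, a small protein that acts on Gi/o and is abundant in microglia, had 277, 326 and 604 normalized counts in female MO, against 259, 350 and 381 in female SAL libraries. Its highest value, 604, came from PFC1, and the next highest female MO library had 354. The log2 fold change in females was 0.10 (95% interval -0.26 to 0.46), and -0.06 without PFC1, so the sign rested on that library. In males Rgs10 had 272, 291 and 341 counts in MO, against 262, 283 and 329 in SAL libraries, a log2 fold change of 0.06 (95% interval -0.10 to 0.22). Rgs10 correlated with the mean of 8 microglia markers (r = 0.82, permutation p = 0.0008, adjusted p = 0.0109, and rho = 0.68, permutation p = 0.00297, adjusted p = 0.0265). That r was 0.58 without PFC1 and PFC22, 0.91 in females, 0.36 in males, 0.97 with the library suffix "combined" and 0.13 without it, so it did not hold in every class of library. Nor was the relation particular to microglia markers. Rgs10 also correlated with oligodendrocyte markers (r = 0.73, adjusted permutation p = 0.0146, and rho = 0.62, adjusted permutation p = 0.0393). With striatal projection neuron markers r was 0.73 (adjusted permutation p = 0.0225) and rho 0.70 (adjusted permutation p = 0.0113). These relations were also uneven. With oligodendrocyte markers r was 0.54 without PFC1 and PFC2, 0.46 in males, 0.79 in females and 0.37 without the suffix. With striatal projection neuron markers it was 0.33 without PFC1 and PFC16, 0.41 in males, 0.90 in females and 0.27 without the suffix.

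Rgs12, a large scaffold with PDZ and Ras-binding domains, had 582, 670 and 930 normalized counts in female MO, against 604, 632 and 661 in female SAL libraries. The value of 930 again came from PFC1, and 5 of 6 female MO libraries were above the SAL mean. The log2 fold change in females was 0.13 (95% interval -0.06 to 0.32, exact permutation p = 0.180), and it was 0.04 without PFC1 (exact permutation p = 0.353). Without PFC3, the lowest female MO library, and with PFC1 kept, it was 0.18 (exact permutation p = 0.00433, unadjusted limma p = 0.0622). Single libraries thus moved the estimate in both directions. In males Rgs12 had 602, 652 and 678 counts in MO, against 606, 641 and 702 in SAL libraries, a log2 fold change of -0.0081 (95% interval -0.12 to 0.10). Rgs14, a Gi/o scaffold known for restricting synaptic plasticity in mouse hippocampal area CA2, had 607, 660 and 751 counts in female MO, against 642, 677 and 759 in female SAL libraries, and 642, 683 and 757 in male MO, against 642, 654 and 752 in male SAL libraries. Its log2 fold changes were -0.05 in females (95% interval -0.19 to 0.09) and 0.04 in males (95% interval -0.07 to 0.16).

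Rgs17, the RZ member, is known to act on Gz and to regulate the mu-opioid receptor in mouse brain. It had 1654, 1839 and 2092 normalized counts in male MO, against 1704, 1852 and 2019 in male SAL libraries, and 1367, 1745 and 1845 in female MO, against 1363, 1604 and 1821 in female SAL libraries. The log2 fold changes were -0.0055 in males (95% interval -0.12 to 0.11) and 0.05 in females (95% interval -0.14 to 0.24). The groups overlapped almost fully in both sexes. Rgs17 was lower where the mean of 6 astrocyte markers was higher (r = -0.77, permutation p = 0.00014, adjusted p = 0.00828, and rho = -0.74, permutation p = 0.00038, adjusted p = 0.0113). That relation was -0.60 without PFC1 and PFC19, -0.87 and -0.60 with and without the suffix "combined", and -0.54 in males and -0.85 in females.

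**Figure D4:**
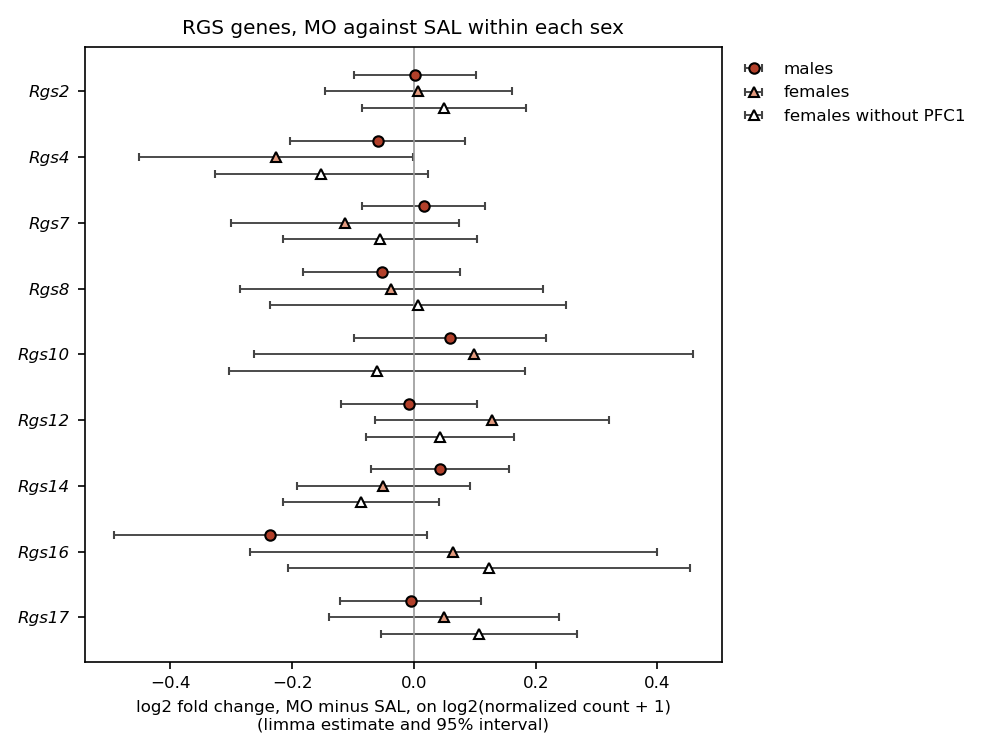
Log2 fold change (MO minus SAL) of each RGS gene with its 95% interval from limma, in males (circles), in females (filled triangles) and in females without the library PFC1 (open triangles). All intervals but that of Rgs4 in females (-0.45 to -0.00084) include 0, and leaving out PFC1 moves Rgs10 from 0.10 to -0.06 and Rgs4 from -0.23 to -0.15.

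The precision of these estimates differed between the sexes and between members. The median SE of the 9 members was 0.05 log2 units in males and 0.09 in females. The 95% intervals in males stayed within -0.20 and 0.22 for every member other than Rgs16, whose lower bound was -0.49. In females the widest interval was that of Rgs10, from -0.26 to 0.46. Within groups, Rgs2 varied between 4.23% and 8.92% (coefficient of variation), Rgs14 between 6.09% and 7.84%, and Rgs16 between 5.76% and 21.4%. The coefficient of variation of Rgs10 in female MO offspring, 33.8%, was the highest of the 36 values of 9 genes in 4 groups.

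The members also moved with each other from library to library. Of 36 pairs of members, 6 had an adjusted permutation p under 0.05 for Pearson's r across the 24 libraries after the group means were taken out, and 4 of these were positive. Rgs4 and Rgs7 were the closest pair (r = 0.78, permutation p = 3e-05, adjusted p = 0.00108, and rho = 0.78, permutation p = 3e-05, adjusted p = 0.00108). The r of Rgs4 and Rgs7 was 0.68 without PFC1 and PFC21, 0.78 in males, 0.79 in females, 0.79 with the suffix "combined" and 0.49 without it. Rgs8 went with both, with an r of 0.62 with Rgs4 (permutation p = 0.00034, adjusted p = 0.00612, and rho = 0.68, permutation p = 0.00074, adjusted p = 0.0133) and 0.65 with Rgs7 (permutation p = 0.00309, adjusted p = 0.0278, and rho = 0.67, permutation p = 0.00168, adjusted p = 0.0202). Without the 2 libraries farthest out these were 0.58 and 0.46, and among libraries without the suffix "combined" 0.35 and 0.16. Rgs7 and Rgs10 went in opposite directions (r = -0.72, permutation p = 0.00169, adjusted p = 0.0203, and rho = -0.61, permutation p = 0.00623, adjusted p = 0.0449), and their r was -0.51 without PFC1 and PFC2 and -0.31 without the suffix.

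Of the 72 pairs of a member and a marker list, 13 had an adjusted permutation p under 0.05 for r. Rgs4, Rgs7 and Rgs8 were each lower where oligodendrocyte markers were higher (r = -0.74, -0.73 and -0.71, permutation p = 0.00053, 0.00182 and 0.00023, adjusted p = 0.0108, 0.0146 and 0.00828, and rho = -0.62, -0.65 and -0.69, adjusted p = 0.0265, 0.0265 and 0.0190). Without PFC1 and PFC2 these were -0.60, -0.51 and -0.61, and among libraries without the suffix "combined" -0.04, 0.0059 and -0.45. In males these r values were -0.41, -0.32 and -0.53, and in females -0.88, -0.83 and -0.76. Rgs4, Rgs7 and Rgs8 were also lower where microglia markers were higher (r = -0.69, -0.67 and -0.74, adjusted permutation p = 0.0109, 0.0241 and 0.0108). Their rho was -0.60, -0.55 and -0.66 (adjusted permutation p = 0.0265, 0.0836 and 0.0265). Without PFC1 and PFC22 these r values were -0.46, -0.39 and -0.62, and among libraries without the suffix -0.30, 0.0033 and -0.19. They were -0.26, -0.01 and -0.32 in males, and -0.86, -0.83 and -0.85 in females. Rgs4 was higher with interneuron markers by r (0.65, adjusted permutation p = 0.0484), but rho was 0.49 (adjusted permutation p = 0.129). That r was 0.32 without PFC1 and PFC21, 0.27 in males and 0.78 in females. It was 0.69 with the suffix "combined" and 0.85 without it. Rgs7 was lower with striatal projection neuron markers (r = -0.61, adjusted permutation p = 0.0245, and rho = -0.67, adjusted permutation p = 0.0113). That r was -0.34 without PFC1 and PFC16, -0.49 in males, -0.70 in females and -0.50 without the suffix. All 6 oligodendrocyte markers had a log2 fold change above 0 in both sexes, with medians of 0.24 in males and 0.33 in females. None of the 6 was called higher at an unadjusted limma p under 0.05 in either sex, where 1.33% of all genes were in males and 1.81% in females. Without PFC1 the female median was 0.0011, and 3 of the 6 markers were above 0. The summed oligodendrocyte markers ran from 44796 through a median of 62717 to 295945 normalized counts in female MO, against 30153, 74359 and 133188 in female SAL libraries. In males they ran from 37988 through 65973 to 134475 in MO, against 44660, 55414 and 77159 in SAL libraries. The part of these cells in the Rgs4 values was not tested.

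**Figure D5:**
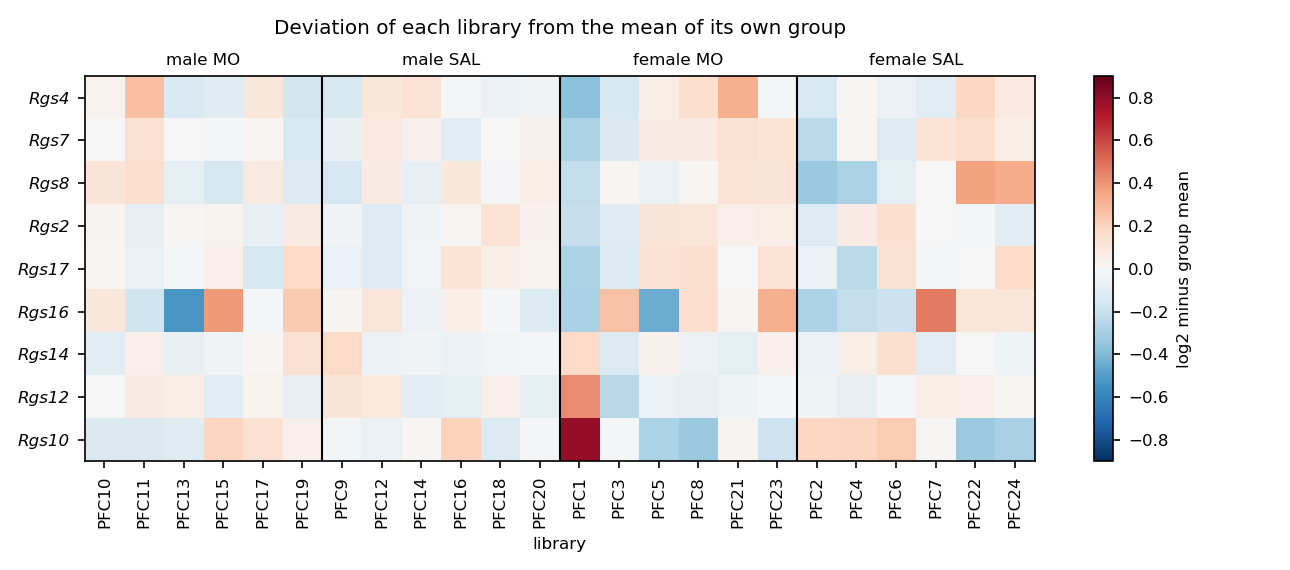
Distance of each library (columns, by group) from the mean of its own group, in log2 units, for the 9 RGS genes (rows), with red above and blue below the mean. The first column of the female MO block, PFC1, is low for Rgs4, Rgs7, Rgs8, Rgs2 and Rgs17 and high for Rgs14, Rgs12 and Rgs10, and Rgs4, Rgs7 and Rgs8 share their colours across most columns.

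PFC1 was the lowest or highest library of its group for 8 of the 9 members. It was lowest for Rgs2, Rgs4, Rgs7, Rgs8 and Rgs17 and highest for Rgs10, Rgs12 and Rgs14. No other library was at an end of its group for more than 5 members. PFC1 also had the highest sums of microglia, oligodendrocyte, astrocyte and striatal projection neuron markers and the lowest sum of immediate early genes (6247 normalized counts) among female MO libraries.

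Genes whose levels were most like each member were searched among the 10503 genes with a mean of at least 100 in each table, by Pearson's r across the 24 libraries after the group means were taken out. For Rgs4 these were Met (r = 0.91), which encodes the hepatocyte growth factor receptor, and Cdh8 (0.90), a cadherin. For Rgs7 they were Pam (0.92), a peptide-amidating enzyme, and Rasgrf2 (0.92), a Ras exchange factor, and for Rgs8 they were Rasal2 (0.92), a Ras GTPase-activating protein, and Atxn1 (0.90). For Rgs17 they were Prkag2 (0.90), a subunit of AMP-activated kinase, and Zfp706 (0.88), and for Rgs10 Hist1h2bc (0.91), a histone H2B gene, and Fbxo2 (0.91). Rgs2 was most like Pgrmc1 (0.82) and Eid2b (0.81), Rgs14 most like Cmbl (0.82) and Plekhj1 (0.76), and Rgs16 most like Brpf1 (0.78) and Zfp248 (0.77). The genes most like Rgs12 were Plch2 (0.82) and Ntng2 (0.79), but those values were 0.44 and 0.35 without PFC1. The libraries of each sex share a normalization, and the r values are descriptions.

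Around the members, few genes of the pathway had an unadjusted limma p under 0.05, which is meant by called here, and none an adjusted p under 0.05. Of 12 other RGS genes 11 were tested, Rgs21 being at 0. In males Rgs11, an R7 gene, was called higher in MO offspring (log2 fold change 0.45, SE 0.18, limma, adjusted p = 1.00), as were 1.33% of all genes. It was also called over both sexes (log2 fold change 0.29, limma, adjusted p = 0.847), as were 2.51% of all genes. In females Rgs5, an R4 gene typical of pericytes, was called higher (log2 fold change 0.25, SE 0.11, limma, adjusted p = 0.918). Rgs5 had 2448, 3024 and 3987 normalized counts in female MO, against 2349, 2440 and 3101 in female SAL libraries. In males it had 2099, 2519 and 2659 in MO, against 2322, 2545 and 2868 in SAL libraries, and the difference between the sexes was called (male minus female -0.30, SE 0.13, limma, adjusted p = 1.00), as it was in this direction for 1.34% of all genes. Of the 6 endothelial and pericyte markers, Pecam1 and Flt1 were also called higher in females, as were 1.81% of all genes. Gnb5, a G beta gene called in females and over both sexes, was counted with the R7 partners above and is not among the genes that follow. The remaining lists gave 0 genes at an unadjusted limma p under 0.05 in males, females, both sexes or the difference between them. They were 13 G alpha genes, 13 tested genes for other G beta and gamma subunits, 9 adenylyl cyclases, and 7 receptor kinases and arrestins. Their median log2 fold changes in males were 0.00043, 0.01, -0.05 and -0.0033, and in females 0.07, 0.12, -0.04 and 0.01.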

How the data were processed

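Reads were mapped by the authors with STAR (mm10, RefSeq genes, first-strand setting), quantified with Salmon and normalized with the DESeq2 app. The deposited values are a signal, normalized counts that are not whole and sum to nearly the same total in every library of a sex, so raw counts, depth and counting error are not known here. Each sex was normalized in its own table. Columns of other series were not present.

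MO was compared with SAL on log2(value + 1) with limma 3.58.1 in R 4.3.3 (empirical Bayes with a trend, Benjamini-Hochberg adjustment), for genes whose values summed to at least 10, within each sex, over both sexes with sex as a term, and as the difference between the sexes. Fold changes on this scale understate changes of low genes. Each member was also tested with 2-sided exact permutations, whose smallest p is 0.00216, and correlations with 100000 permutations within groups. The fit was tested on simulated data. Libraries are separate offspring.

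The members and the lists were chosen with earlier results of these data known. All 9 members are named, and of each list at most 2 genes, those with the smallest unadjusted p under 0.05. Positions and transcript lengths come from GENCODE M21 (GRCm38), and upstream sequences from RefSeq (GRCm38.p6). Alternatives were other pseudocounts (0.5 and 5), no filter, a mean of at least 10, sample weights, a term for the suffix "combined", scaling to Gapdh and Ppia, and leaving out each library. Values within classes of the suffix and without PFC1 were chosen after seeing the data.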

Additional observations from a re-analysis of the deposited data

Results flagged for a closer look

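Of 36 groups of 6 libraries (9 genes in 4 groups), 3 had a library far from the others by Dixon's ratio, above its 95% critical value. Chance alone flags about 1 in 20 groups. Rgs10 in female MO offspring had 604 normalized counts in PFC1, and the nearest library had 354 (ratio 0.76). Rgs12 in female MO offspring had 930 normalized counts in PFC1, and the nearest library had 685 (ratio 0.70). Rgs14 in male SAL offspring had 752 normalized counts in PFC9, and the nearest library had 661 (ratio 0.82). Without PFC1 the log2 fold changes of Rgs10 and Rgs12 in females were -0.06 and 0.04, and without PFC9 that of Rgs14 in males was 0.08.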

How the results depend on the processing

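No gene passed an adjusted p of 0.05 in limma under any alternative that was run. The number of members at an unadjusted limma p under 0.05 was 0 in males and 1 with sample weights (Rgs16). It was 1 in females and 0 with a pseudocount of 5, with no filter and with scaling to Gapdh and Ppia, and 1 over both sexes and 0 with sample weights and with that scaling. With each library left out in turn it was 0 to 1 in each of these comparisons. By exact permutation the number was 0 in males and females, and leaving out each library gave 0 to 1 in males (Rgs16 without PFC15, p = 0.0130) and 0 to 1 in females (Rgs4 without PFC21, p = 0.0108, and Rgs12 without PFC3, p = 0.00433). The Rgs4 call was lost in 9 of the 12 fits without a library in females and in 11 of the 24 over both sexes. Scaling to Gapdh and Ppia moved the median log2 fold change of all genes by -0.03 in males, 0.09 in females, 0.03 over both sexes and -0.12 for the difference between the sexes. It turned the sign of Rgs2 (-0.025) and Rgs7 (-0.011) in males, Rgs8 (0.054) and Rgs14 (0.040) in females, Rgs14 over both sexes (0.028) and Rgs14 for the difference between the sexes (-0.024). Sample weights turned Rgs10 in females (-0.070) and for the difference between the sexes (0.12), and a term for the suffix turned Rgs17 in males (0.0029) and Rgs8 for the difference between the sexes (0.012). Scaling divides all genes of a library by the same factor, so the turns under scaling go with the shift of all genes. The cause of the turns under sample weights and the term for the suffix was not tested. Leaving out each library turned the sign of estimates near 0. In males these ran from -0.021 to 0.028 for Rgs2, -0.012 to 0.043 for Rgs7, -0.027 to 0.015 for Rgs12 and -0.042 to 0.026 for Rgs17, and in females from -0.016 to 0.049 for Rgs2, -0.10 to 0.035 for Rgs8 and -0.060 to 0.16 for Rgs10. Over both sexes they ran from -0.0065 to 0.024 for Rgs2, -0.019 to 0.012 for Rgs14 and -0.0023 to 0.048 for Rgs17, and for the difference between the sexes from -0.047 to 0.021 for Rgs2, -0.088 to 0.051 for Rgs8 and -0.11 to 0.12 for Rgs10. Without PFC1, the immediate early genes called lower were 10 of 12 over both sexes, against 11 with it (2.21% of all genes were called lower), and their median log2 fold change in females was -0.26, against -0.48 with it. No paired analysis was possible. MO and SAL libraries come from different dams, and the labels do not say which male and female libraries share a dam.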

Other observations

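Blood markers were outside the comparisons of the RGS genes. Of 5 such genes, 4 had an unadjusted limma p under 0.05 and a higher level in MO offspring over both sexes, as did 2.51% of all genes, and 0 had an adjusted p under 0.05. Hba-a1 and Hbb-bt, which encode hemoglobin chains, had log2 fold changes of 0.63 and 0.63 over both sexes. The fifth, Hbb-bs, another hemoglobin chain, went the other way, with a log2 fold change of -1.02 over both sexes (not called) and -3.10 in males (called lower, limma, adjusted p = 1.00, where 1.52% of all genes were called lower). It was listed at 0 in 5 of 6 male MO libraries and 2 of 6 male SAL libraries. The beta-globin genes are near-identical copies, so the values of both Hbb-bs and Hbb-bt are uncertain. The part of this likeness in the Hbb-bs values was not tested. The summed blood markers ran from 5518 through a median of 10296 to 13084 normalized counts in male MO, against 4218, 5847 and 12069 in male SAL libraries. In females they ran from 4608 through 10611 to 18869 in MO, against 2833, 6977 and 10584 in SAL libraries, and the groups overlapped in both sexes.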
